A study of Homo sapiens and Mus musculus with 15 samples.

Results

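Ribosome biogenesis and nucleolar genes were followed through 2 myeloma cell lines made resistant to proteasome inhibitors. The set held 43 genes, listed by symbol, out of 23329 genes in each table of the mouse line 5TGM1 and 23346 in each table of the human line RPMI-8226, called 8226 here. All 43 were found in every table, under title-case symbols in mouse, and all 43 passed the filter on low counts in both lines. They fell into 8 groups by role: 6 genes of RNA polymerase I and its nucleolar cofactors, 3 core proteins of box C/D and 4 of box H/ACA small nucleolar ribonucleoproteins, 9 genes of the small subunit processome and 40S maturation, 13 of 60S assembly, 5 nucleolar RNA-binding and structural proteins, the pseudouridine synthase PUS7, and 2 enzymes of polyamine synthesis.

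The study sequenced RNA from 15 libraries in 5 groups of 3. 5TGM1 is a plasma cell tumour line of mouse, and 8226 came from a human plasma cell myeloma. Each was grown naive, that is without a proteasome inhibitor, or made resistant by culture in rising drug over months. The resistant groups were 5TGM1 kept in 20 nM bortezomib, 8226 kept in 10 nM bortezomib and 8226 kept in 10 nM carfilzomib, and all 3 were off the drug for 5 days before RNA was taken. Bortezomib is a reversible and carfilzomib an irreversible inhibitor of the proteasome. Each resistant group is a single derived line, so resistance, drug history and the chance outcome of deriving that line cannot be told apart. The labels do not say whether the 3 libraries of a group were separate cultures, so a p-value reflects library-to-library spread, and that spread may be technical.

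Ribosomes are assembled in the nucleolus, where RNA polymerase I transcribes the ribosomal RNA precursor. Small nucleolar ribonucleoproteins guide its methylation and pseudouridylation, the small subunit processome folds and cuts the part that becomes the 40S subunit, and a separate series of factors builds the 60S subunit. Many of these genes, with ornithine decarboxylase and spermidine synthase, are known targets of the transcription factor MYC, whose deregulation is a frequent feature of myeloma.

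Each 5TGM1 library held 49097494 to 72288680 reads on genes, and each 8226 library 31709636 to 58419576. Levels are given in CPM, a gene's count relative to all reads on genes of its library, with these totals scaled between libraries by the TMM method. Plasma cell markers were present in every library, with summed levels of 5596 to 7225 CPM in 5TGM1 and 3796 to 9614 CPM in 8226, while T cell markers summed to at most 10.2 CPM and fibroblast markers to at most 2.57 CPM. In 8226 the plasma cell marker sum went from 8428 to 9614 CPM in naive libraries to 3796 to 3945 CPM in bortezomib-resistant and 5662 to 5863 CPM in carfilzomib-resistant ones. In 5TGM1 it went the other way, from 5596 to 5850 CPM in naive to 6819 to 7225 CPM in bortezomib-resistant libraries. Single plasma cell markers went both ways in the test described below. Of 8 tested in 8226, 5 were lower and 3 higher in the bortezomib-resistant line, and 7 lower and 1 higher in the carfilzomib-resistant one. Of 6 tested in 5TGM1, 3 were higher and 2 lower. Macrophage markers summed to 285 to 288 CPM in naive and 377 to 427 CPM in bortezomib-resistant 5TGM1, where 3 of 9 passed the filter on low counts. In 8226 they summed to 53.5 to 59.1 CPM in naive, 48.5 to 52.2 CPM in bortezomib-resistant and 26.6 to 27.8 CPM in carfilzomib-resistant libraries. These sums also hide a split. Of 6 macrophage markers tested in 8226, 3 were lower and 2 higher with bortezomib, and 4 lower and 2 higher with carfilzomib. Of the 3 tested in 5TGM1, 2 were higher and 1 lower.

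The promoters of the human genes were examined for the E-box CACGTG, the letters that MYC with its partner MAX is known to bind, because so many of the genes are known MYC targets. RefSeq promoter sequences of GRCh38.p14, from 250 bases before to 50 after each annotated start, were at hand for 36 of the 43 genes. CACGTG is its own reverse complement, so a match counts on both strands. It was present in 20 of the 36 genes (55.6%), against 12.5% of the 9593 genes that were tested in 8226 and had a promoter in the table, and 8.77% of all 27305 genes there. Counted by promoter instead of by gene, 21 of 45 promoters (46.7%) held it. The share was 9.03% of the 14168 promoters of genes tested in 8226 and 7.26% of all 35116 promoters. Windows of 30 bases around the match are printed for the 8 genes with an E-box that fell by more than 1.5-fold in bortezomib-resistant 8226 (GNL3 to RRP9) and for 4 that went another way in 1 of the lines (LYAR, NOP14, GNL2 and ODC1). The 6 letters of the E-box are in capitals, and each window reads 5′ to 3′ on the gene's strand.
GNL3 (chr3:52686026-52686055, plus strand): ggcttcagttcaCACGTGgcgccagcggag
SRM (chr1:11060200-11060229, minus strand): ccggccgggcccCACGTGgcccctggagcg
MRTO4 (chr1:19251807-19251836, plus strand): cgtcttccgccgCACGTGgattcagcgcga
PUS7 (chr7:105522226-105522255, minus strand): gtcgctgcgccgCACGTGtgcgagcccggc
FBL (chr19:39846356-39846385, minus strand): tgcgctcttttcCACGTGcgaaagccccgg
NOP2 (chr12:6568242-6568271, minus strand): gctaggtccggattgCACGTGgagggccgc
NOC3L (chr10:94362903-94362932, minus strand): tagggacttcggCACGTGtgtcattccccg
RRP9 (chr3:51941892-51941921, minus strand): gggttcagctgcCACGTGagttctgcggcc
LYAR (chr4:4290068-4290097, minus strand): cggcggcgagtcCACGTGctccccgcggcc
NOP14 (chr4:2963374-2963403, minus strand): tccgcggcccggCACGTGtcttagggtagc
GNL2 (chr1:37595917-37595946, minus strand): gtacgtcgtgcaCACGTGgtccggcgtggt
ODC1 (chr2:10447990-10448019, minus strand): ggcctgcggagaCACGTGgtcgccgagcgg

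In most of these windows the E-box lay just after the annotated start. It began within the 50 bases after the start in 14 of the 36 genes (38.9%), against 1.5% of the tested genes with a promoter. Among the printed windows that of SRM lay farthest out, 199 bases before the start, and those of LYAR and RRP9 also lay before it. ODC1 has another E-box before the start, beginning at position -29, whose window is not printed. A second motif, CCGGAAG with its reverse complement CTTCCGG, which ETS family factors are known to bind, was present in 14 of 36 genes (38.9%) against 21.7% of the tested ones, and in none of the 14 after the start. The median GC content of the promoters was 65.7% in the set and 64.3% in the tested genes. A match describes the letters in the window and is not shown to be a bound site.

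**Figure D1:**
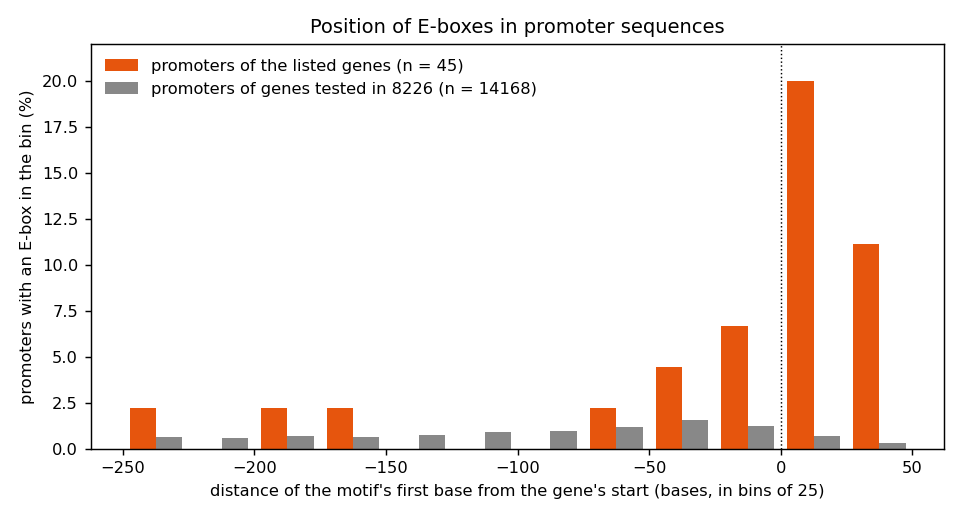
Share of promoters with an E-box (CACGTG) beginning in each bin of distance from the annotated start, in bases, for the listed genes and for all promoters of genes tested in 8226. The bars of the listed genes stand highest in the bin just after the start.

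Across the set, levels were mostly lower in the bortezomib-resistant lines than in their naive parents in both species, and were mixed in the carfilzomib-resistant 8226 line. The summed level of the 43 genes was 16175 ± 121 CPM in naive and 13357 ± 279 CPM in bortezomib-resistant 5TGM1 (mean ± SD, n = 3). In 8226 it was 12253 ± 556 CPM in naive, 9184 ± 183 CPM in bortezomib-resistant and 13110 ± 138 CPM in carfilzomib-resistant libraries. The bortezomib-resistant libraries lay below all naive ones in each line, and the carfilzomib-resistant libraries lay above all naive 8226 libraries. Most of the latter difference was NCL, the gene of the set with the most reads there. Without NCL the other 42 genes summed to 10140 ± 389 CPM in naive, 7670 ± 93.7 CPM in bortezomib-resistant and 10183 ± 13.8 CPM in carfilzomib-resistant 8226, so that naive and carfilzomib-resistant libraries overlapped. As a share of gene reads before scaling, these sums were 1.62% and 1.34% in 5TGM1, and 1.16%, 0.987% and 1.29% in 8226. The bortezomib-resistant 8226 libraries also stood apart in other measures. Reads in no annotated gene were 14.9% to 16.6% there, against 10.4% to 12.9% in naive and 10.8% to 12.8% in carfilzomib-resistant 8226. Their TMM factors were 1.07 to 1.08, against 0.937 to 0.951 and 0.985 to 0.987, and they held 31709636 to 34339788 reads on genes, against at least 39032731 in the other 8226 libraries. In 5TGM1 reads in no annotated gene were 10.6% to 11.1% in naive and 11.5% to 12% in bortezomib-resistant libraries. The part of these measures in the lower levels was not tested. In bulk RNA a lower level in every cell and fewer cells that express a gene cannot be told apart.

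**Figure D2:**
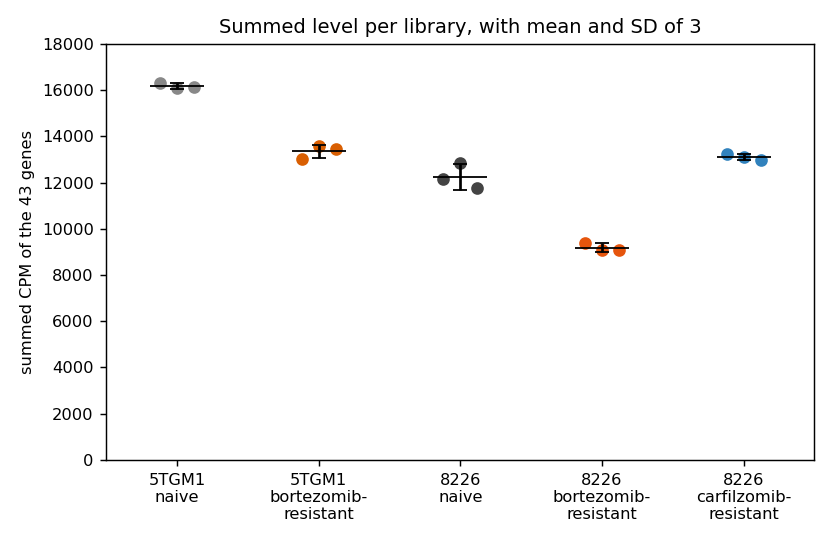
Summed level of the 43 genes, in CPM, in each of the 15 libraries (points), with the mean and SD of 3 libraries (lines and bars). Both bortezomib-resistant groups lie below their naive group, and the carfilzomib-resistant group lies at 13110 CPM against 12253 CPM in naive 8226, a difference that is mostly NCL.

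Genes were tested with edgeR's quasi-likelihood F test and called at an adjusted p below 0.05, with Benjamini-Hochberg adjustment over all genes tested. In bortezomib-resistant against naive 5TGM1, 28 of the 43 genes were lower, 3 were higher and 12 were not called, while 33.2% of all 11974 genes tested were lower and 34.0% higher. The median log2 fold change was -0.19 in the set and 0.00 over all genes. In bortezomib-resistant against naive 8226, 29 genes were lower, 5 higher and 9 not called, against 41.6% of 13910 genes lower and 38.2% higher. The medians there were -0.46 and -0.03. Of the 29 lower genes 13 changed by more than 1.5-fold, a size that 26.7% of all genes tested reached downward. In 5TGM1 3 genes fell by more than 1.5-fold, against 11.0% of all genes, and none rose by as much, against 9.16%. In either direction 31 genes were called in 5TGM1 and 34 in 8226, against 67.2% and 79.8% of all genes. Naive and bortezomib-resistant libraries were fully apart for 34 of the 43 genes in 5TGM1, against 69.7% of all genes, and for 34 in 8226, against 79.6%.

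In carfilzomib-resistant against naive 8226, 11 genes were higher, 10 lower and 22 not called, against 35.0% of all genes higher and 36.7% lower. The median log2 fold change was -0.02 in the set and 0.00 over all genes, and 2 genes rose and none fell by more than 1.5-fold, against 17.4% and 19.6% of all genes. Between the resistant 8226 lines, 33 genes were higher in the carfilzomib-resistant line, 3 lower and 7 not called, against 39.9% of all genes higher and 37.0% lower. The medians were 0.48 in the set and 0.02 over all genes, and 16 of the 33 passed 1.5-fold, a size that 23.5% of all genes reached upward. The comparisons within 8226 share libraries, naive or bortezomib-resistant, so their counts are not independent of each other. In either direction 21 genes were called in carfilzomib-resistant against naive 8226 and 36 between the resistant lines, against 71.7% and 76.9% of all genes. The groups did not overlap for 21 and 37 genes, against 73.1% and 79.8%.

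The scaling mattered for the balance of these calls in 8226. With library size alone in place of TMM, the median over all genes in bortezomib-resistant against naive 8226 moved from -0.03 to 0.157, and the split of all genes from 5314 higher and 5781 lower to 6665 and 4681. The set then had 12 genes higher and 28 lower there. Between the resistant lines the median over all genes moved from 0.02 to -0.084, the split of all genes from 5549 and 5141 to 4693 and 6005, and that of the set from 33 and 3 to 30 and 4. For carfilzomib-resistant against naive 8226 all genes went from 4872 higher and 5100 lower to 5462 and 4589, and the set from 11 and 10 to 15 and 6.

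**Figure D3:**
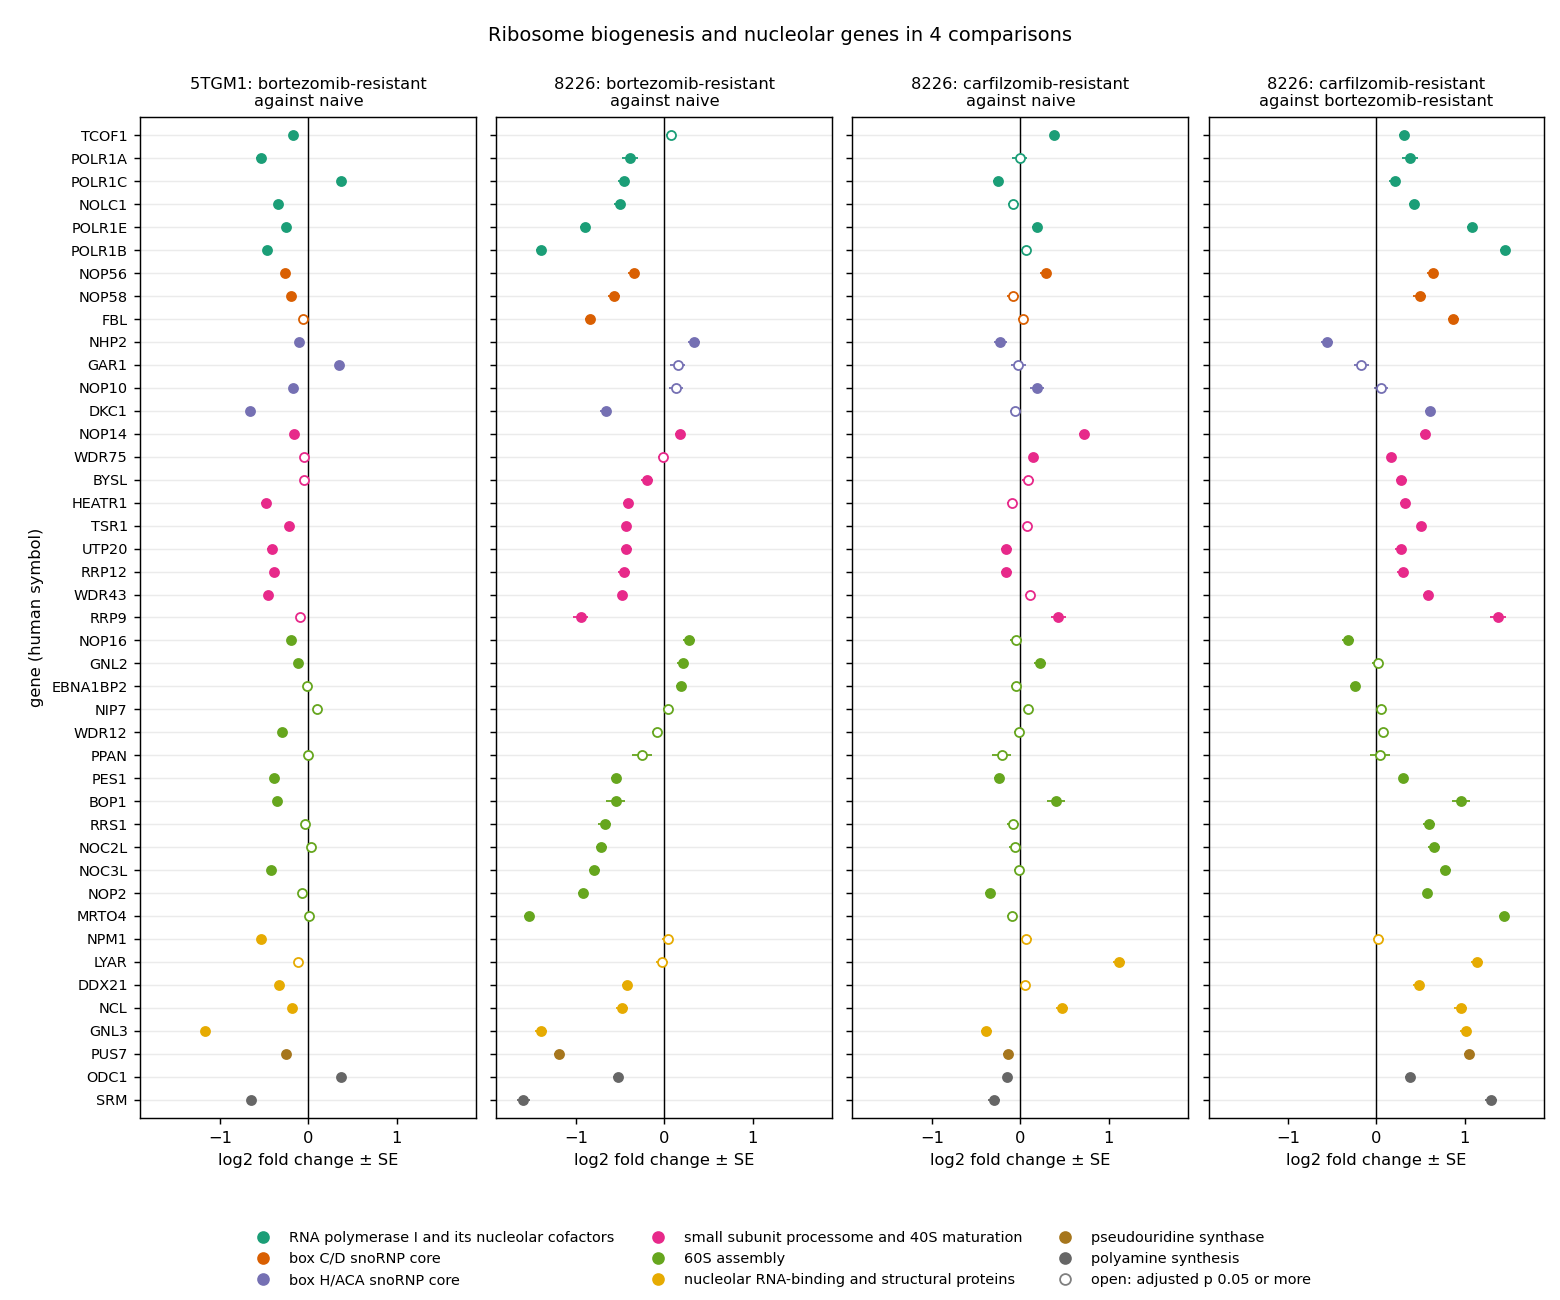
Log2 fold change of each of the 43 genes, in rows by role, in the 4 comparisons, with SE bars; filled points passed an adjusted p of 0.05 in edgeR's quasi-likelihood test and open points did not. Points lie mostly left of 0 for the bortezomib-resistant lines, on both sides of it for carfilzomib-resistant against naive 8226, and mostly right of it between the resistant 8226 lines.

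The 6 genes of RNA polymerase I and its cofactors divided unevenly. In bortezomib-resistant 8226, 5 of 6 fell, and all 6 were higher in the carfilzomib-resistant line than in the bortezomib-resistant one. In 5TGM1 5 fell and 1 rose. Of all genes tested, 41.6% were lower in bortezomib-resistant 8226 and 39.9% higher between the resistant lines. In 5TGM1 33.2% were lower and 34.0% higher. POLR1B, the second largest subunit of the enzyme, was counted at 192, 194 and 186 CPM in the naive, 73.9, 74.5 and 69.6 in the bortezomib-resistant and 203, 189 and 206 in the carfilzomib-resistant libraries. The bortezomib-resistant libraries lay below all others and the naive and carfilzomib-resistant ones overlapped. The log2 fold change was -1.39 ± 0.0533 (SE) for bortezomib-resistant against naive 8226 (adjusted p = 1.54e-12) and 1.45 ± 0.0533 between the resistant lines (adjusted p = 1.16e-12). POLR1E, a subunit that acts in initiation and elongation, was counted at 57.2, 53.8 and 53.6 CPM in the naive, 29.6, 29.1 and 29.8 in the bortezomib-resistant and 60.2, 62.1 and 64.5 in the carfilzomib-resistant libraries. The order was bortezomib-resistant, naive, carfilzomib-resistant with no overlap, and the log2 fold changes against naive were -0.89 and 0.18.

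POLR1A, the largest and catalytic subunit, changed most of the group in 5TGM1. Polr1a was counted there at 112, 131 and 124 CPM in the naive and 87.0, 82.9 and 83.3 in the bortezomib-resistant libraries, without overlap, a log2 fold change of -0.53 ± 0.0529 (adjusted p = 1.68e-07). In 8226 POLR1A was counted at 97.6, 95.5 and 89.6 CPM in the naive, 63.4, 70.8 and 81.9 in the bortezomib-resistant and 98.9, 82.9 and 99.1 in the carfilzomib-resistant libraries. Here too the bortezomib-resistant libraries were the lowest, by 0.39 on the log2 scale, and the other groups overlapped. POLR1C, a subunit shared with RNA polymerase III, went the other way in mouse, with Polr1c at 60.9, 58.8 and 61.9 CPM in the naive and 78.4, 81.3 and 74.3 in the bortezomib-resistant libraries. Its log2 fold change in 5TGM1 was 0.37 ± 0.0448 (adjusted p = 2.02e-06). In 8226 POLR1C was counted at 52.2, 58.7 and 54.3 CPM in the naive, 38.2, 41.1 and 40.7 in the bortezomib-resistant and 45.3, 47.1 and 46.1 in the carfilzomib-resistant libraries. Both resistant lines lay below naive 8226, by 0.46 and 0.25, and the difference of 0.21 between them was not called with library size alone (0.08).

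TCOF1 (treacle) is a scaffold that recruits the polymerase and its factors, and NOLC1 is a chaperone of small nucleolar ribonucleoproteins. TCOF1 was counted at 171, 156 and 159 CPM in the naive, 167, 173 and 170.2 in the bortezomib-resistant and 218, 203 and 212 in the carfilzomib-resistant libraries. The naive and bortezomib-resistant libraries overlapped, and the carfilzomib-resistant ones lay above both, by 0.38 against naive (adjusted p = 7.20e-06). With library size alone its value in the bortezomib-resistant line, 0.07, became a call of 0.26. In 5TGM1 Tcof1 went from 397, 418 and 402 to 353, 357 and 372 CPM, a fall of 0.17. NOLC1 was counted at 499, 548 and 466 CPM in the naive, 365, 357 and 345 in the bortezomib-resistant and 493, 459 and 479 in the carfilzomib-resistant libraries. Only the bortezomib-resistant libraries stood apart among the 3 groups, 0.50 below naive on the log2 scale. Nolc1 also fell in 5TGM1, by 0.35.

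The 3 core proteins of box C/D ribonucleoproteins, which methylate ribosomal RNA at the ribose, all fell in bortezomib-resistant 8226. Of all genes tested, 41.6% were lower there. FBL (fibrillarin), the methyltransferase, was counted at 313, 315 and 319 CPM in the naive, 175, 165 and 189 in the bortezomib-resistant and 308, 346 and 311 in the carfilzomib-resistant libraries. The bortezomib-resistant libraries lay below all others, with log2 fold changes of -0.84 ± 0.0604 against naive (adjusted p = 3.54e-09) and 0.87 ± 0.0603 for carfilzomib-resistant against bortezomib-resistant (adjusted p = 2.73e-09). In 5TGM1 Fbl was not called (-0.06), and the difference between the lines in the bortezomib comparison was -0.77 ± 0.0772 (adjusted p = 3.57e-08).

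NOP56 and NOP58 are the paired scaffold proteins of the same particle. NOP56 was counted at 307, 356 and 302 CPM in the naive, 248, 250.1 and 260.0 in the bortezomib-resistant and 379.9, 404 and 394 in the carfilzomib-resistant libraries. Here the carfilzomib-resistant libraries were above naive by 0.29 and the bortezomib-resistant ones below by 0.35. Nop56 was counted in 5TGM1 at 799.7, 791 and 812 CPM in the naive and 659, 665 and 683 in the bortezomib-resistant libraries, a fall of 0.26. NOP58 was counted at 376, 420.2 and 337 CPM in the naive, 272, 252 and 239.8 in the bortezomib-resistant and 357, 361 and 353 in the carfilzomib-resistant libraries. Its bortezomib-resistant libraries were the lowest, by 0.57 against naive, and naive and carfilzomib-resistant libraries overlapped. In mouse Nop58 fell by 0.19.

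The 4 proteins of box H/ACA ribonucleoproteins, which turn uridines of ribosomal RNA into pseudouridine and also belong to telomerase, did not move together. DKC1 (dyskerin), the enzyme, fell in both bortezomib-resistant lines. Dkc1 was counted in 5TGM1 at 193, 197 and 196 CPM in the naive and 117, 132 and 123 in the bortezomib-resistant libraries, a log2 fold change of -0.66 ± 0.0450 (adjusted p = 1.74e-09). DKC1 was counted in 8226 at 365, 403 and 347 CPM in the naive, 239, 236 and 228 in the bortezomib-resistant and 365, 339 and 364 in the carfilzomib-resistant libraries. The log2 fold change against naive was -0.66 ± 0.0595 (adjusted p = 5.12e-08), the carfilzomib-resistant libraries overlapped the naive ones, and the interaction test gave a difference between the lines of 0.01 ± 0.0800 (adjusted p = 0.938).

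NHP2, an RNA-binding core protein, was counted at 113, 129 and 129.8 CPM in the naive, 149.8, 151 and 169 in the bortezomib-resistant and 107, 112 and 99.1 in the carfilzomib-resistant libraries. It rose in the bortezomib-resistant line, by 0.34, and had the largest fall of the set between the resistant lines, 0.56. Against naive the carfilzomib-resistant libraries were lower by 0.23, a call that ended without the library carfilzomib-resistant replicate 3 (-0.18, adjusted p = 0.051). In 5TGM1 Nhp2 was counted at 301, 275 and 289 CPM in the naive and 267, 277 and 263 in the bortezomib-resistant libraries, which overlapped, and its call (-0.10, adjusted p = 0.0448) ended when naive replicate 1 or 3 or bortezomib-resistant replicate 1 or 3 was left out, with values of -0.07 to -0.10, and without the filter on low counts (-0.09). NOP10, the smallest of the 4, was counted at 45.3, 52.9 and 52.9 CPM in the naive, 53.8, 51.6 and 59.7 in the bortezomib-resistant and 58.8, 60.9 and 51.9 in the carfilzomib-resistant libraries. Its call for carfilzomib-resistant against naive 8226 (0.18, adjusted p = 0.0481) came with overlapping libraries and ended without carfilzomib-resistant replicate 1 (0.17), replicate 2 (0.14) or naive replicate 1 (0.11). It also ended with DESeq2 (0.16, adjusted p = 0.0867), with only these 2 groups in the fit (0.18, adjusted p = 0.0516) and with the unstranded counts (0.18, adjusted p = 0.0562). Nop10 was counted in 5TGM1 at 201, 189 and 191 CPM in the naive and 172, 178 and 166 in the bortezomib-resistant libraries and fell by 0.17. GAR1 was called in 1 comparison, a rise of 0.35 in bortezomib-resistant 5TGM1. Its value in bortezomib-resistant 8226 (0.15) was called with library size alone (0.34) and without naive replicate 2 (0.23). That between the resistant lines (-0.17) was called with library size alone (-0.30), with only these groups in the fit (-0.17) and without carfilzomib-resistant replicate 2 (-0.23).

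All 9 genes of the small subunit processome and 40S maturation were higher in the carfilzomib-resistant than in the bortezomib-resistant line, and 7 of 9 fell in bortezomib-resistant 8226. The shares of all genes were 39.9% higher in the former comparison and 41.6% lower in the latter. RRP9, the protein that marks U3 small nucleolar RNA for the processome, was counted at 53.5, 49.3 and 60.5 CPM in the naive, 26.8, 25.9 and 32.2 in the bortezomib-resistant and 73.0, 75.5 and 71.5 in the carfilzomib-resistant libraries. The 3 groups did not overlap, and log2 fold changes were -0.95 ± 0.0858 for bortezomib-resistant (adjusted p = 6.09e-08) and 0.43 ± 0.0819 for carfilzomib-resistant against naive (adjusted p = 2.32e-04). Rrp9 was not called in 5TGM1 (-0.10, adjusted p = 0.0625).

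HEATR1, WDR43 and WDR75 belong to the subcomplex that joins transcription of the precursor to its processing. Heatr1 had the largest fall of the 9 genes in 5TGM1, counted at 150.2, 171 and 158 CPM in the naive and 117, 112 and 113 in the bortezomib-resistant libraries, a log2 fold change of -0.48 ± 0.0476 (adjusted p = 1.63e-07). HEATR1 was counted in 8226 at 347, 327 and 325 CPM in the naive, 243, 262 and 245 in the bortezomib-resistant and 322, 295 and 318 in the carfilzomib-resistant libraries. The bortezomib-resistant libraries lay below the other 6, by 0.41 against naive. WDR43 was counted at 285, 304 and 272 CPM in the naive, 211, 208 and 200.2 in the bortezomib-resistant and 309, 305 and 313 in the carfilzomib-resistant libraries. It gave the same picture, with a fall of 0.47 in 8226 and of 0.46 for Wdr43 in 5TGM1. WDR75 was not called in either bortezomib comparison, and the value in 8226 (-0.02) turned to 0.17 and was called with library size alone. WDR75 was higher by 0.15 in carfilzomib-resistant against naive 8226, which ended without naive replicate 3 (0.11, adjusted p = 0.076), and by 0.17 between the resistant lines, which was not called with library size alone (0.04).

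NOP14, a processome protein needed for the early cuts, was counted at 122, 126 and 112 CPM in the naive, 133, 138 and 135 in the bortezomib-resistant and 197, 192 and 203 in the carfilzomib-resistant libraries. It rose in both resistant 8226 lines without overlap, by 0.18 with bortezomib and by 0.72 ± 0.0535 with carfilzomib (adjusted p = 8.24e-09). Nop14 was counted in 5TGM1 at 113, 114 and 113 CPM in the naive and 100.18, 103 and 102 in the bortezomib-resistant libraries, a fall of 0.16, and the lines differed by 0.35 ± 0.0691 (adjusted p = 1.54e-04).

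UTP20, a large repeat protein of pre-40S particles, was counted at 129, 125 and 113 CPM in the naive, 86.9, 94.8 and 90.5 in the bortezomib-resistant and 116, 102 and 111 in the carfilzomib-resistant libraries. RRP12, a factor in pre-ribosome export, was counted at 103, 93.3 and 109 CPM in the naive, 69.6, 74.8 and 78.0 in the bortezomib-resistant and 94.4, 86.5 and 92.2 in the carfilzomib-resistant libraries. For both genes the bortezomib-resistant libraries were the lowest, with falls of 0.43 and 0.46 against naive, and the carfilzomib-resistant libraries overlapped the naive ones. Calls of -0.16 for UTP20 and -0.16 for RRP12 in carfilzomib-resistant against naive 8226 ended in more than 1 way. For UTP20 they ended without carfilzomib-resistant replicate 2 (-0.10) or 3 (-0.17) or naive replicate 1 (-0.12) or 2 (-0.14). For RRP12 they ended without each of the 3 carfilzomib-resistant libraries in turn (-0.18, -0.12 and -0.17) or without naive replicate 1 (-0.15) or 3 (-0.11). Both calls also ended with library size alone (-0.10 for each) and with only these 2 groups in the fit (-0.16 for each, with adjusted p = 0.0534 for UTP20 and 0.0511 for RRP12). The difference of 0.27 for UTP20 between the resistant lines was not called with library size alone (0.15, adjusted p = 0.0502). In 5TGM1 Utp20 fell by 0.41 and Rrp12 by 0.39.

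TSR1, a late factor that holds the pre-40S particle inactive in the cytoplasm, was counted at 189, 195 and 183 CPM in the naive, 141, 143 and 137 in the bortezomib-resistant and 201, 197 and 199.7 in the carfilzomib-resistant libraries. Its bortezomib-resistant libraries lay below the other 6, by 0.43 against naive, and Tsr1 fell by 0.21 in 5TGM1. BYSL (bystin), another pre-40S factor, was counted at 55.4, 52.1 and 60.8 CPM in the naive, 47.8, 46.3 and 52.2 in the bortezomib-resistant and 58.2, 62.0 and 57.9 in the carfilzomib-resistant libraries. Naive and bortezomib-resistant libraries overlapped. The call of -0.20 for BYSL (adjusted p = 0.0128) was lost without bortezomib-resistant replicate 2 (-0.16) or naive replicate 3 (-0.14), and with library size alone (-0.02).

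The 13 genes of 60S assembly held 3 of the 5 rises of the set in bortezomib-resistant 8226. There 7 fell, 3 rose and 3 were not called, and in 5TGM1 6 fell and 7 were not called. Of all genes tested, 41.6% were lower and 38.2% higher in bortezomib-resistant 8226, and 33.2% lower and 34.0% higher in 5TGM1. MRTO4, which holds the place of a stalk protein in the immature subunit, was counted at 176, 194 and 191 CPM in the naive, 62.2, 63.1 and 68.0 in the bortezomib-resistant and 172, 179 and 174 in the carfilzomib-resistant libraries. The bortezomib-resistant level was 2.90-fold lower than naive, a log2 fold change of -1.54 ± 0.0560 (adjusted p = 8.73e-13), and naive and carfilzomib-resistant libraries overlapped. In 5TGM1 Mrto4 averaged 101 ± 3.16 CPM in naive and 101 ± 0.868 CPM in bortezomib-resistant libraries (mean ± SD, n = 3), which overlapped, and the difference between the lines of -1.52 ± 0.0735 was the largest of the set (adjusted p = 5.10e-13).

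PES1, BOP1 and WDR12 form a complex needed to process the precursor of the large ribosomal RNAs. PES1 was counted at 236, 253 and 240.3 CPM in the naive, 161, 164 and 174 in the bortezomib-resistant and 204, 206 and 205 in the carfilzomib-resistant libraries. Both resistant lines lay below naive, by 0.55 with bortezomib and 0.25 with carfilzomib. BOP1 was counted at 74.6, 59.5 and 82.2 CPM in the naive, 43.3, 47.6 and 56.8 in the bortezomib-resistant and 95.4, 98.7 and 92.2 in the carfilzomib-resistant libraries. BOP1 fell by 0.55 with bortezomib and rose by 0.40 ± 0.103 with carfilzomib (adjusted p = 0.00255), the largest change of the 13 genes in the latter comparison. In 5TGM1 Pes1 fell by 0.38 and Bop1, counted at 179.6, 184 and 188 CPM in the naive and 146, 145 and 139 in the bortezomib-resistant libraries, by 0.35. WDR12, the third partner, was called in 1 comparison, a fall of 0.30 in 5TGM1.

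NOC3L and NOC2L are carriers of early and middle pre-60S particles. NOC3L was counted at 87.3, 91.8 and 83.2 CPM in the naive, 51.3, 53.7 and 46.5 in the bortezomib-resistant and 85.2, 87.1 and 87.4 in the carfilzomib-resistant libraries. NOC2L was counted at 345, 300.4 and 353 CPM in the naive, 203, 194 and 212 in the bortezomib-resistant and 323, 328 and 305 in the carfilzomib-resistant libraries. In both the bortezomib-resistant libraries were the lowest, by 0.79 and 0.71 against naive, and the other groups overlapped. Noc3l had the largest fall of the 13 genes in 5TGM1. It was counted at 67.1, 73.4 and 71.2 CPM in the naive and 51.4, 52.1 and 55.2 in the bortezomib-resistant libraries, a log2 fold change of -0.42 ± 0.0464 (adjusted p = 6.98e-07), while Noc2l was not called (0.03).

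NOP2, a methyltransferase of the large ribosomal RNA, was counted at 139.5, 147 and 129 CPM in the naive, 73.0, 74.0 and 72.6 in the bortezomib-resistant and 108, 109 and 111 in the carfilzomib-resistant libraries. The groups did not overlap, with falls of 0.92 in the bortezomib-resistant and 0.34 in the carfilzomib-resistant line. RRS1, which helps to load the 5S particle, was counted at 50.3, 54.0 and 55.0 CPM in the naive, 35.8, 31.0 and 32.7 in the bortezomib-resistant and 51.2, 53.5 and 45.8 in the carfilzomib-resistant libraries. Only its bortezomib-resistant libraries stood apart, 0.68 below naive. Neither Nop2 (-0.08) nor Rrs1 (-0.04) was called in 5TGM1.

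NOP16, EBNA1BP2 and GNL2 rose in bortezomib-resistant 8226. NOP16, a nucleolar 60S factor, was counted at 70.4, 76.4 and 71.3 CPM in the naive, 90.1, 80.4 and 93.1 in the bortezomib-resistant and 66.6, 76.2 and 67.7 in the carfilzomib-resistant libraries. EBNA1BP2, which works beside RRS1, was counted at 239, 278 and 251 CPM in the naive, 295, 285 and 298 in the bortezomib-resistant and 245, 254 and 242 in the carfilzomib-resistant libraries. GNL2, a GTPase of pre-60S particles, was counted at 239, 262 and 215 CPM in the naive, 288, 274 and 265 in the bortezomib-resistant and 283, 273 and 279 in the carfilzomib-resistant libraries. The bortezomib-resistant libraries were the highest for NOP16 and EBNA1BP2, by 0.27 and 0.19 against naive, and for GNL2 both resistant lines were above naive, by 0.21 and 0.22. In 5TGM1 Nop16 was counted at 123, 113 and 118 CPM in the naive and 101, 106 and 102 in the bortezomib-resistant libraries and fell by 0.19. Gnl2 was counted there at 170.2, 175 and 176 CPM in the naive and 164, 157 and 159 in the bortezomib-resistant libraries, and its fall of 0.12 was not called without bortezomib-resistant replicate 2 (-0.10) or 3 (-0.11) or naive replicate 3 (-0.11).

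NIP7 and PPAN, both factors of the maturing 60S subunit, were called in no comparison. NIP7 was counted at 137, 146 and 140.5 CPM in the naive, 145, 147 and 142 in the bortezomib-resistant and 146, 147 and 157 in the carfilzomib-resistant libraries, and Nip7 at 94.3, 89.5 and 97.0 CPM in the naive and 101, 101 and 97.7 in the bortezomib-resistant libraries. The value for NIP7 in bortezomib-resistant 8226 (0.04) was called with library size alone (0.22), and so was that in the carfilzomib-resistant line (0.15). PPAN was counted at 22.3, 19.2 and 25.8 CPM in the naive, 19.8, 17.3 and 19.4 in the bortezomib-resistant and 20.0, 21.8 and 16.4 in the carfilzomib-resistant libraries, and Ppan at 203, 195 and 202 CPM in the naive and 194, 201 and 201 in the bortezomib-resistant libraries. The log2 fold change of PPAN in bortezomib-resistant 8226 was -0.25 ± 0.113 (adjusted p = 0.0514) and reached -0.35 without naive replicate 2, where it was called. It was also called by DESeq2 (-0.28) and without the filter on low counts (-0.26). A readthrough transcript into the neighbouring gene overlaps PPAN in the annotation, so its counts are uncertain.

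Of the 5 nucleolar RNA-binding and structural proteins, GNL3 changed most in both bortezomib-resistant lines against naive. LYAR changed most in carfilzomib-resistant against naive 8226 (1.11) and between the resistant 8226 lines (1.14). GNL3 (nucleostemin) is a GTPase that shuttles between nucleolus and nucleoplasm and is abundant in dividing cells. It was counted at 387, 434 and 361 CPM in the naive, 153, 149 and 147 in the bortezomib-resistant and 293, 296 and 314 in the carfilzomib-resistant libraries. All 3 groups were apart, with log2 fold changes against naive of -1.40 ± 0.0638 in the bortezomib-resistant line (adjusted p = 1.41e-11) and -0.39 ± 0.0623 in the carfilzomib-resistant line (adjusted p = 4.58e-05). In 5TGM1 Gnl3 was counted at 465, 452 and 464 CPM in the naive and 197, 208 and 209 in the bortezomib-resistant libraries. Its fall of 1.17 on the log2 scale, or 2.25-fold, was the largest of the 43 genes in that line (adjusted p = 2.58e-13).

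NCL (nucleolin), an abundant nucleolar RNA-binding protein, was counted at 2126, 2280.2 and 1934 CPM in the naive, 1636, 1519 and 1388 in the bortezomib-resistant and 3043, 2949 and 2789 in the carfilzomib-resistant libraries. It fell by 0.48 with bortezomib and rose by 0.47 with carfilzomib, without overlap. Ncl was counted in 5TGM1 at 3388, 3285 and 3199 CPM in the naive and 2725, 3003 and 2947 in the bortezomib-resistant libraries, a fall of 0.19. DDX21, an RNA helicase of the nucleolus, was counted at 558, 577 and 518 CPM in the naive, 433, 419 and 381 in the bortezomib-resistant and 586, 553 and 575 in the carfilzomib-resistant libraries. The bortezomib-resistant libraries were the lowest, 0.42 below naive, and Ddx21 fell by 0.33 in 5TGM1.

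LYAR, a nucleolar protein first described for its role in cell growth, departed from this pattern. It was counted at 109, 117 and 99.2 CPM in the naive, 114, 104 and 102 in the bortezomib-resistant and 244, 238 and 222 in the carfilzomib-resistant libraries. The carfilzomib-resistant libraries were 2.16-fold above naive, a log2 fold change of 1.11 ± 0.0660 (adjusted p = 5.41e-10) and the largest rise of the set against naive. Naive and bortezomib-resistant libraries overlapped. The value of -0.02 for LYAR in the latter became 0.16, and was called, with library size alone. Lyar in 5TGM1 gave -0.12 (adjusted p = 0.0522), not called. NPM1 (nucleophosmin), the main protein of the outer nucleolus, was not called in 8226 (0.04 and 0.06 against naive, and 0.23 with a call for bortezomib with library size alone). In 5TGM1 Npm1 fell by 0.54 ± 0.0421 (adjusted p = 9.22e-09). RefSeq names 50 pseudogenes for NPM1, and reads shared with near-identical copies make its level uncertain. A further 13 of the 43 genes have at least 1 named pseudogene.

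**Figure D4:**
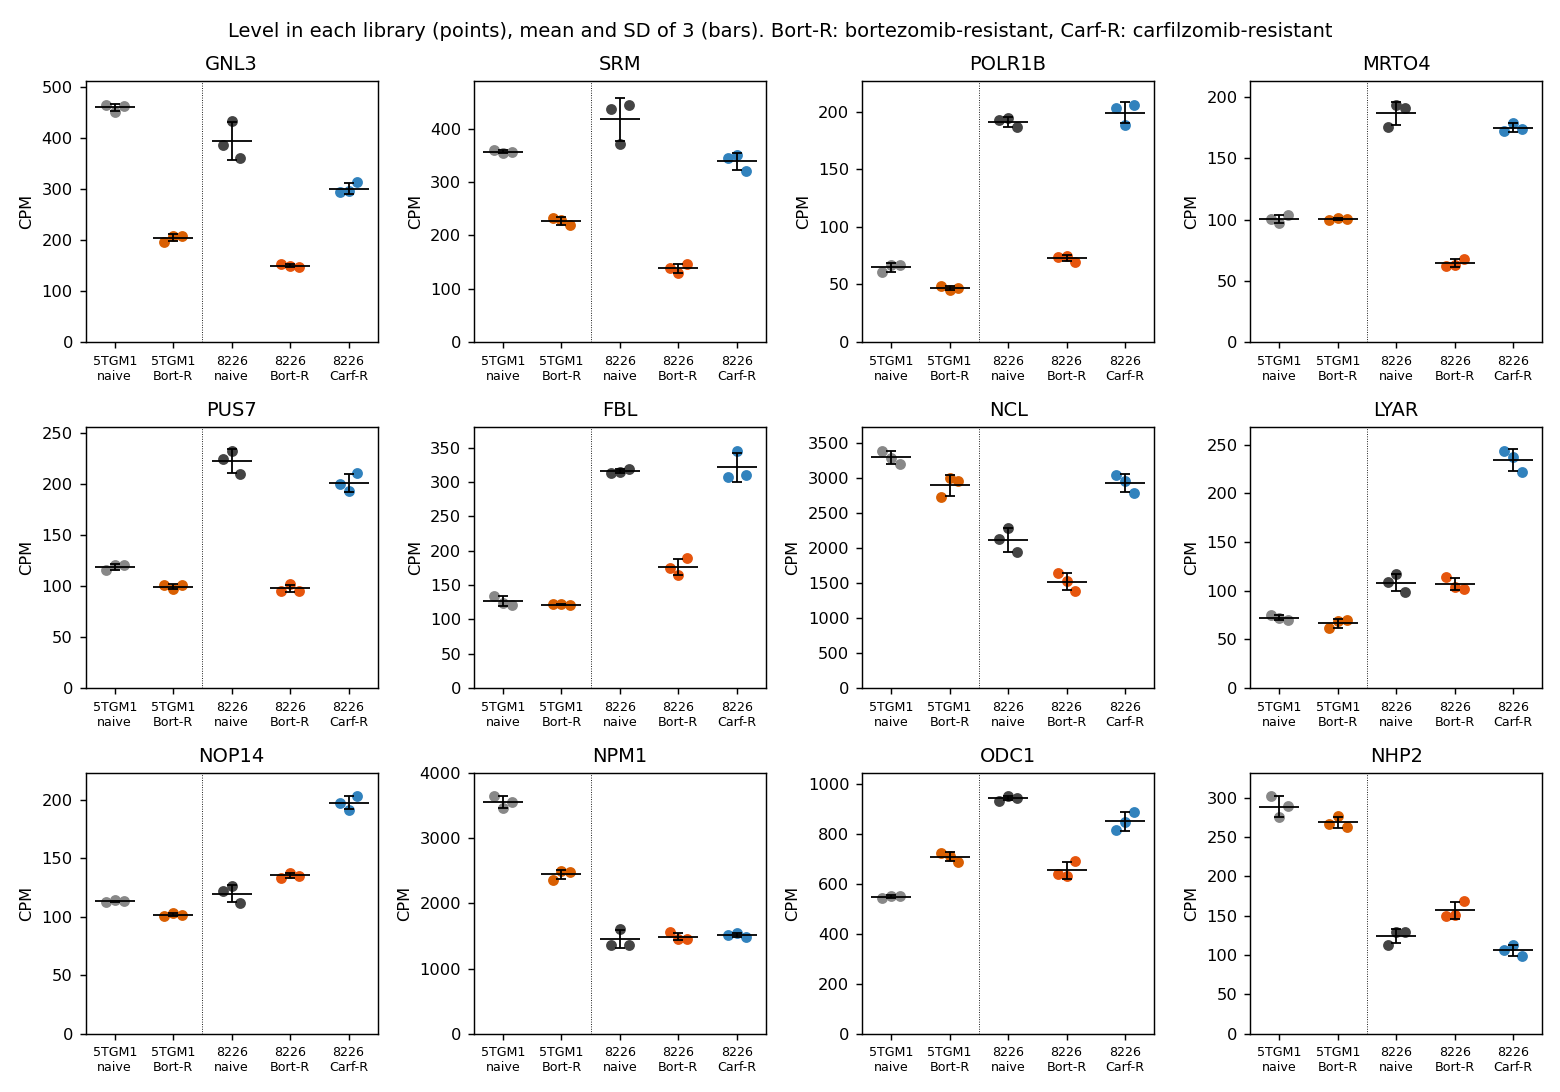
Level in CPM of selected genes in each of the 15 libraries, by group, with the mean and SD of 3 as bars and an axis from 0 in each panel. Among the 8226 groups GNL3, SRM, MRTO4 and PUS7 are lowest in the bortezomib-resistant one, LYAR and NOP14 are highest in carfilzomib-resistant 8226, and ODC1 is higher in bortezomib-resistant than in naive 5TGM1.

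PUS7, a pseudouridine synthase that acts on transfer and messenger RNAs, was counted at 224, 233 and 209.7 CPM in the naive, 95.5, 102 and 95.5 in the bortezomib-resistant and 199.9, 193 and 210.4 in the carfilzomib-resistant libraries. The bortezomib-resistant libraries were 2.28-fold below naive, a log2 fold change of -1.19 ± 0.0566 (adjusted p = 2.35e-11). Carfilzomib-resistant and naive libraries overlapped, and the call between them (-0.15) ended without carfilzomib-resistant replicate 1 (-0.13) or 2 (-0.11), without naive replicate 1 (-0.14) or 2 (-0.11), and with library size alone (-0.08). In 5TGM1 Pus7 was counted at 115, 120.1 and 121 CPM in the naive and 101, 96.7 and 101 in the bortezomib-resistant libraries, a fall of 0.26 ± 0.0408 (adjusted p = 3.68e-05).

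The polyamine enzymes SRM and ODC1 fell together in 8226 and went apart in 5TGM1. SRM, spermidine synthase, had the largest fall of the set in bortezomib-resistant 8226. It was counted at 437, 371 and 445 CPM in the naive, 138, 129 and 146 in the bortezomib-resistant and 345, 350.0 and 321 in the carfilzomib-resistant libraries. The groups did not overlap, and the log2 fold changes against naive were -1.60 ± 0.0719, or 3.02-fold lower (adjusted p = 1.16e-11), and -0.30 ± 0.0697 (adjusted p = 0.0012). In 5TGM1 Srm was counted at 360.4, 354 and 356 CPM in the naive and 233, 229 and 219.5 in the bortezomib-resistant libraries, a log2 fold change of -0.65 ± 0.0393 (adjusted p = 3.59e-10).

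ODC1, ornithine decarboxylase, makes the first polyamine of the pathway, and its protein is itself broken down by the proteasome. It was counted at 932, 949 and 943 CPM in the naive, 639.7, 629 and 692 in the bortezomib-resistant and 814, 847 and 887 in the carfilzomib-resistant libraries. The bortezomib-resistant libraries were lower than naive by 0.53. The smaller fall in the carfilzomib-resistant line (-0.15) was not called without its replicate 1 (-0.11) or 2 (-0.14), or with library size alone (-0.09). In 5TGM1 Odc1 was counted at 541, 552 and 552 CPM in the naive and 724, 712 and 687 in the bortezomib-resistant libraries, which did not overlap, a rise of 0.37 ± 0.0388 (adjusted p = 3.69e-07). Between the lines the change of ODC1 differed by -0.87 ± 0.0688 (adjusted p = 9.20e-10).

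The bortezomib comparisons in 5TGM1 and 8226 share no library, so they can be set against each other. Of the genes that were lower, 20 were lower in both lines, which is 71.4% of the 28 in 5TGM1 and 69.0% of the 29 in 8226. Over all 8944 genes tested in both lines and matched by symbol, these shares were 46.3% and 38.3%. As a share of all genes, 46.5% of the 43 and 15.7% of the 8944 were lower in both. The product of the shares lower in each line is 43.9% for the 43 genes and 14% for the 8944, so the overlap in the set is close to what its 2 counts give by themselves. The 20 were POLR1A, POLR1B, POLR1E, NOLC1, NOP56, NOP58, DKC1, HEATR1, WDR43, UTP20, RRP12, TSR1, PES1, BOP1, NOC3L, NCL, GNL3, DDX21, PUS7 and SRM. POLR1C and ODC1 were higher in 5TGM1 and lower in 8226, and NHP2, NOP14, NOP16 and GNL2 the reverse. FBL, RRP9, BYSL, NOP2, MRTO4, RRS1 and NOC2L were called lower in 8226 and not called in 5TGM1, and TCOF1, NOP10, WDR12 and NPM1 were called lower in 5TGM1 and not called in 8226. Across the 43 genes the log2 fold changes of the lines had a Pearson r of 0.363 and a Spearman rho of 0.234, against 0.0415 and 0.0612 across all 8944 genes. These are across genes, which are not independent replicates, and serve as a description.

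**Figure D5:**
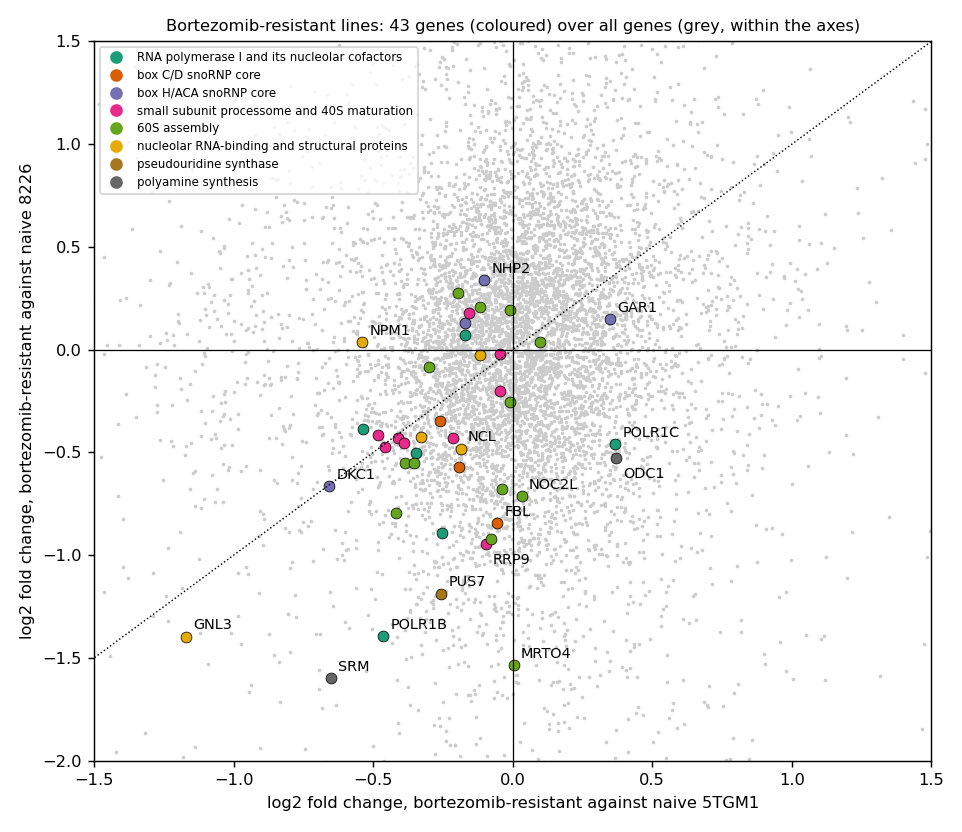
Log2 fold change of bortezomib-resistant against naive libraries in 8226 (vertical) and in 5TGM1 (horizontal), for the 43 genes (coloured) and all 8944 genes matched between the lines (grey). Most of the 43 points lie below 0 in both, with GNL3 farthest to the left, SRM and MRTO4 lowest, and POLR1C and ODC1 to the lower right.

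The difference between the lines was tested as an interaction in edgeR's quasi-likelihood fit over 11847 shared symbols, of which 64.9% were called. Of the 43 genes 26 were called. The change was more positive in 5TGM1 for 17 of them, against 33.5% of all symbols, and more positive in 8226 for 9, against 31.4%. These shares of all symbols come from a wider set than the 8944 genes tested in both lines. The filter of this fit did not require reads in both lines, while all 43 genes were tested in both. With library size alone the split of the set became 12 and 15, and that of all symbols went from 3973 and 3717 to 3235 and 4642. Mouse and human values come from separate annotations, and a symbol match is not a table of orthologues.

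The 36 genes with a promoter sequence were divided by the E-box. In bortezomib-resistant against naive 8226, the 20 genes with one had a median log2 fold change of -0.50, with 14 lower and 3 higher, and the 16 without one a median of -0.37, with 9 lower and 2 higher. Of all genes tested there, 41.6% were lower and 38.2% higher. Between the resistant lines the medians were 0.56 and 0.26, and against naive the carfilzomib-resistant line gave -0.02 and -0.01. These medians describe the genes at hand and were not tested against each other. Of the 13 genes that fell by more than 1.5-fold in bortezomib-resistant 8226, 8 carry the motif, and their windows are printed above. Among the 36 genes with a sequence 20 carry it (55.6%). The 8 with the motif changed by -0.79 (NOC3L) to -1.60 (SRM). POLR1B (-1.39) lay within that range with a promoter sequence that has no E-box. NOC2L (-0.71) and DKC1 (-0.66), also without one, fell less, and POLR1E and RRS1 had no sequence in the table. NOP14, GNL2 and EBNA1BP2 carry the motif and rose in bortezomib-resistant 8226, by 0.18, 0.21 and 0.19. LYAR (-0.02), GAR1 (0.15) and NOP10 (0.13) carry it and were not called there. With library size alone each of them was called higher, at 0.16, 0.34 and 0.32.

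In the bortezomib-resistant lines MYC itself changed less than many of these genes. In carfilzomib-resistant against naive 8226 MYC rose by 0.24, more in size than most of them, where the median log2 fold change of the set was -0.02. Its level was 913 ± 31.9 CPM in naive, 703 ± 8.56 CPM in bortezomib-resistant and 1079 ± 17.7 CPM in carfilzomib-resistant 8226 (mean ± SD, n = 3). The groups did not overlap, with log2 fold changes of -0.38 ± 0.0482 (adjusted p = 3.17e-06) and 0.24 ± 0.0481 (adjusted p = 3.46e-04) against naive. In 5TGM1 Myc went from 401 ± 4.01 to 361 ± 2.37 CPM, a fall of 0.15 (adjusted p = 0.00197). Of the 11 genes of the MYC and MAX network tested in 8226, 5 were lower and 3 higher in the bortezomib-resistant line. Of all genes tested there, 41.6% were lower and 38.2% higher. In the carfilzomib-resistant line 1 was lower and 7 higher, against 36.7% and 35.0% of all genes. In 5TGM1 6 of 9 were lower and 3 higher, against 33.2% and 34.0%. MXD3, a MAX partner that opposes MYC, rose by 0.82 in bortezomib-resistant 8226, and MXD1, another such partner, by 0.99 in the carfilzomib-resistant line. Mxd4, of the same family, fell by 0.62 in 5TGM1, while MXD4 rose by 0.82 in bortezomib-resistant and by 0.91 in carfilzomib-resistant 8226. MXI1, also of this family, fell by 0.49 in bortezomib-resistant 8226, from 81.2 CPM in naive to 57.8 CPM. In 5TGM1 Mxd3 rose by 0.54 and Mxd1 fell by 0.33. Between the resistant lines MYCL1, a paralogue of MYC at a low level, was higher by 3.91 in the carfilzomib-resistant one, at 12.5 ± 1.05 CPM against 0.821 ± 0.283 CPM and 7.54 ± 0.843 CPM in naive 8226.

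Other genes of the pathway were taken from lists that exclude the 43. For reference, 41.6% of all genes tested were lower and 38.2% higher in bortezomib-resistant 8226, and 33.2% and 34.0% in 5TGM1. In carfilzomib-resistant against naive 8226 36.7% were lower and 35.0% higher. Between the resistant lines 39.9% were higher and 37.0% lower. Of 43 other small subunit processome and 40S genes, 26 were lower and 7 higher in bortezomib-resistant 8226, and 28 lower and 6 higher in 5TGM1. The largest of these falls in 8226 was that of IMP3, a U3 ribonucleoprotein component, at -1.59, and in 5TGM1 that of Ngdn at -0.92. IMP3 was also the most changed of them between the resistant lines, at 1.48. In carfilzomib-resistant against naive 8226 10 were higher and 12 lower, with EMG1, a methyltransferase of the small ribosomal RNA, at -0.86. Of 46 other 60S assembly genes tested in 8226, 28 were lower and 7 higher in the bortezomib-resistant line, led by RSL1D1 at -1.63, and 28 higher and 7 lower between the resistant lines. In 5TGM1 26 of 45 were lower and 8 higher, with Tex10 at -0.53. MKI67IP was higher by 1.44 in the carfilzomib-resistant than in the bortezomib-resistant line. Against naive 8226 the carfilzomib-resistant line had 13 higher and 16 lower, with CCDC86 at -1.03. Exosome and other rRNA-processing nucleases were mixed, with 9 of 20 lower and 5 higher in bortezomib-resistant 8226 and 6 lower and 7 higher in 5TGM1. The counts lower were near the shares of all genes. EXOSC2, a subunit of the exosome's cap, fell by 0.80 in bortezomib-resistant 8226. SKIV2L2, the helicase that feeds the nuclear exosome, fell by 0.92 in carfilzomib-resistant against naive 8226, and POP1, a protein of RNase P and RNase MRP, was higher by 0.85 in the carfilzomib-resistant than in the bortezomib-resistant line. DIS3, the exosome's catalytic subunit, rose by 0.70 in bortezomib-resistant 8226 and Dis3 fell by 0.97 in 5TGM1.

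Of 11 other genes of the RNA polymerase I machinery, 7 were lower and 2 higher in bortezomib-resistant 8226, 5 lower and 5 higher in carfilzomib-resistant 8226, and 6 lower and 2 higher in 5TGM1. The shares of all genes lower and higher were 41.6% and 38.2%, 36.7% and 35.0%, and 33.2% and 34.0% in these comparisons. They also stand beside the polyamine counts that follow. CD3EAP, a partner subunit of POLR1E, fell by 1.36 in bortezomib-resistant 8226 and Cd3eap by 0.39 in 5TGM1. CD3EAP was higher by 1.56 in the carfilzomib-resistant than in the bortezomib-resistant line, and TAF1B, a subunit of the promoter selectivity factor, rose by 0.58 in carfilzomib-resistant against naive 8226. UBTF, the factor that keeps ribosomal DNA open for transcription, was at 219 ± 10.9 CPM in naive, 164 ± 4.09 in bortezomib-resistant and 293 ± 10.1 in carfilzomib-resistant 8226, all apart, with log2 fold changes of -0.42 and 0.42. Ubtf was not called in 5TGM1 (0.01, adjusted p = 0.904). RRN3, which couples initiation to growth signals, fell by 0.38 in the carfilzomib-resistant line and by 0.25 in the bortezomib-resistant one. The latter call was lost with library size alone (-0.07), and Rrn3 fell by 0.37 in 5TGM1. Among 8 other polyamine genes, 5 were lower and 2 higher in bortezomib-resistant 8226, where AMD1, which makes the aminopropyl donor for SRM, fell by 0.54. Of the 5 lower calls, those of OAZ1 (-0.30) and SAT1 (-0.22) ended with library size alone (-0.11, adjusted p = 0.22, and -0.04, adjusted p = 0.613). AMD1 was higher by 0.73 in the carfilzomib-resistant than in the bortezomib-resistant line, and SAT1 rose by 0.39 in carfilzomib-resistant against naive 8226, where 3 were higher and 2 lower. In 5TGM1 the list went another way, with 2 of 7 higher, 1 lower and 4 not called. Sat1 and Smox, which break down or oxidize polyamines, rose there by 0.99 and 0.68.

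Cell cycle genes changed in the same comparisons. Of 28 on a list of replication and mitosis genes, 20 were lower and 1 higher in bortezomib-resistant 8226, against 41.6% and 38.2% of all genes. In bortezomib-resistant 5TGM1 23 were lower and 2 higher, against 33.2% and 34.0%. Between the resistant 8226 lines 22 were higher and 4 lower, against 39.9% and 37.0%. CCNB2, a mitotic cyclin, fell by 1.63 on the log2 scale in bortezomib-resistant 8226 and was 2.82-fold higher in the carfilzomib-resistant than in the bortezomib-resistant line. MCM7, a subunit of the replicative helicase, fell by 0.77 in carfilzomib-resistant against naive 8226. There 6 of the 28 were higher and 11 lower, against 35.0% and 36.7% of all genes. Mcm10, a replication factor, fell by 0.57 in 5TGM1. The summed level of the 28 was 7411 to 7550 CPM in naive, 5293 to 5319 CPM in bortezomib-resistant and 7056 to 7288 CPM in carfilzomib-resistant 8226. In 5TGM1 it was 6432 to 6663 CPM in naive and 5296 to 5360 CPM in bortezomib-resistant libraries. The part of the cell cycle genes, and of the plasma cell and macrophage markers given above, in the results for ribosome biogenesis was not tested.

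Some of the genes hold other transcripts in their introns. In the RefSeq annotation 9 of the 43 contain 27 small nucleolar RNA genes, namely NOP56, NOP58, DKC1, WDR43, TSR1, PPAN, NCL, GNL3 and ODC1. In the 8226 tables these small RNAs had 0 to 70 counts per library, so reads on them are few beside those of the host genes, and their own levels were not compared.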

How the data were processed

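The authors deposited 1 table of whole-number read counts per gene symbol for each of the 15 libraries, not normalized. The aligner was STAR, per the submitters' processing notes, with a version and an annotation release not given in the sources used here. Which file goes with which of the noted builds (mm10, GRCm38, hg19 and GRCh37) is not stated. Column 4 of the deposited counts, which held nearly all stranded gene reads, was used; 4 rows of totals per table stayed out. Reads that map to several places, 15.3% to 16.3% in 5TGM1 and 8.95% to 10.9% in 8226, are not in these counts, so genes with near-identical copies are undercounted.

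Counts were tested in R 4.3.3 with edgeR 4.0.16 (TMM scaling, filterByExpr, quasi-likelihood F test, Benjamini-Hochberg over all genes tested, adjusted p below 0.05), with 1 fit for the 6 libraries of 5TGM1, 1 for the 9 of 8226 and 1 for the 12 of the interaction over symbols shared by both species. The SE of a log2 fold change was derived from the F statistic. The fit and the calls were tested on simulated data. Intervals of counting error are not given, because spread within groups exceeded it in every replicate pair. Alternatives were DESeq2 1.42.0, library size alone, no filter, the unstranded column, 2-group fits, a replicate block and leaving out each library. The set and all other lists were chosen with earlier results of these data known. Every gene of the set was accounted for; values per library were given for the largest called change of each role group in each comparison, for genes called in opposite directions in 2 comparisons and for genes called in none. Library values of 5TGM1 were given where a call there put a gene under that rule, by its size or against a call in 8226 relative to naive. From each other pathway list the called gene that reaches 10 CPM with the largest change in each comparison was named, and MYC, UBTF and RRN3 in any case. DIS3, SAT1, Smox, OAZ1, MXD4, MXI1, Mxd3 and Mxd1 were added in 1 or more comparisons after their values were seen. Marker lists were given as sums, with counts of calls for the plasma cell and macrophage lists. Groups and replicate numbers came from the sample titles. Promoter sequences are from RefSeq (GRCh38.p14), a later build than that of the tables, and were matched by symbol.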

Additional observations from a re-analysis of the deposited data

Results flagged for a closer look

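For 26 of the 43 genes the change with bortezomib resistance differed between 8226 and 5TGM1 in the interaction test of edgeR's quasi-likelihood fit, with p adjusted over 11847 shared symbols. Each value below is the log2 change in 8226 minus the log2 change in 5TGM1. The fall in 8226 was the deeper one, or was set against a rise in 5TGM1, for 17 genes. The differences passed 0.5 in size for MRTO4 (-1.52, adjusted p = 5.10e-13), SRM (-0.93), POLR1B (-0.91), PUS7 (-0.91), ODC1 (-0.87), RRP9 (-0.83), NOP2 (-0.82), POLR1C (-0.81), FBL (-0.77), NOC2L (-0.72), POLR1E (-0.62) and RRS1 (-0.62). They were smaller for NOP58 (-0.36), NOC3L (-0.36), NCL (-0.27), GNL3 (-0.20) and TSR1 (-0.19), and these 5 were not called with library size alone.

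The value was above 0 for 9 genes. NPM1 had the largest (0.60, adjusted p = 6.61e-06), followed by NOP16 (0.49), NHP2 (0.46), NOP14 (0.35), GNL2 (0.35), NOP10 (0.32), TCOF1 (0.26), WDR12 (0.24) and EBNA1BP2 (0.22). Leaving out 1 library ended the call for 3 of the 26. EBNA1BP2 lost it without naive 8226 replicate 1 (0.18), and NCL without bortezomib-resistant 5TGM1 replicate 2 (-0.24), naive 5TGM1 replicate 3 (-0.25) or bortezomib-resistant 8226 replicate 3 (-0.21). GNL3 lost it without any of 7 libraries, with values of -0.13 to -0.20: replicates 2 and 3 of naive and of bortezomib-resistant 5TGM1, replicates 2 and 3 of bortezomib-resistant 8226, and replicate 2 of naive 8226.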

How the results depend on the processing

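Library size alone in place of TMM moved the most calls. It turned the value of LYAR in bortezomib-resistant against naive 8226 to 0.16 and that of WDR75 to 0.17, both called. The set then had 12 genes higher in that comparison, 6 lower in carfilzomib-resistant against naive 8226, and 15 with a change more positive in 8226 than in 5TGM1. These moves came with the shift of all genes given in the report, and their cause was not tested. DESeq2, the unstranded column, the 2-group fits and the lack of a filter kept every count of the set within 1.5 times its value. Of the calls of single genes of the set, 29 of 31 in 5TGM1, 33 of 34 in bortezomib-resistant 8226, 33 of 36 between the resistant lines and 14 of 21 in carfilzomib-resistant against naive 8226 held under every alternative that was run. Leaving out 1 library ended 2, 1, 0 and 7 of these. The count of lower genes ranged over 27 to 29 in 5TGM1, 28 to 30 in bortezomib-resistant and 7 to 11 in carfilzomib-resistant 8226 when 1 library was left out. Where it left an arm with 2 libraries the spread was pooled with the other groups.

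Same-numbered libraries had correlations of -0.459 to 0.489, so the numbers were not taken to pair the libraries, and not every library correlated best with its own number. With the replicate number as a block the set had 27 genes lower and 3 higher in 5TGM1, 29 and 5 in bortezomib-resistant 8226, 10 and 11 in carfilzomib-resistant 8226, and 33 higher and 3 lower between the resistant lines. The block ended the call of Nhp2 in 5TGM1 (-0.10, adjusted p = 0.0801) and no other call of the set in these comparisons. All 43 genes passed the filter on low counts in both lines, and the effect of depth on their calls was not tested. Changes below about 0.2 on the log2 scale were those whose calls ended most often.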
